A study of Mus musculus with 8 samples.

Results

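Noradrenergic neurons make, store, release and retrieve noradrenaline, and 10 genes of this programme were followed in vagal ganglia, the ganglia that hold the cell bodies of vagal sensory neurons. They were chosen by name from the count table, for synthesis (Th, Ddc, Dbh), vesicular storage (Slc18a2), reuptake (Slc6a2), breakdown (Maoa), the co-transmitter neuropeptide Y (Npy) and transcription factors of sympathetic identity (Gata2, Hand1, Hand2), and are 10 of the 55335 genes listed. The choice was made with earlier results of these data known. All 10 were among the 17618 genes that passed the filter on low counts. The animals were wild-type mice that received either HDM (house dust mite, an inhaled allergen) or saline as the control. Ganglia were taken 1.5 h after challenge 4, and each group had 4 libraries. For each library 3 to 4 mice were pooled, which gave 6 to 8 ganglia. Strain, sex and age are not stated in the labels. A batch number from 1 to 4 joins 1 HDM and 1 saline library. Libraries are numbered here as in the sample titles. The columns of the deposited counts carry other numbers: HDM2 to HDM5 hold HDM 1 to 4, and Saline2 to Saline5 hold Saline 1 to 4. HDM 4 is thus the column HDM5, and Saline 2 the column Saline3.

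In a noradrenergic neuron, tyrosine hydroxylase (Th) and aromatic amino acid decarboxylase (Ddc) turn tyrosine into dopamine in the cytosol. The vesicular transporter VMAT2 (Slc18a2) loads dopamine into vesicles, where dopamine beta-hydroxylase (Dbh) converts it to noradrenaline. The noradrenaline transporter NET (Slc6a2) takes the released transmitter back up, and monoamine oxidase A (Maoa) degrades it. Hand2, Gata2 and Gata3 act with Phox2a to set this identity in sympathetic neurons, and many sympathetic neurons also release neuropeptide Y. In mice, sympathetic neurons of the neck lie in the superior cervical ganglion, close to the vagal ganglia. Th is less restricted than Dbh or Slc6a2, and some sensory neurons also express it.

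The libraries held 23952130 to 26670634 counts in HDM and 26868337 to 31281281 in saline. Levels are given as CPM, depth-normalised counts (edgeR's CPM) with library totals scaled by TMM factors, which adjust for a few genes that take up much of a library and lay between 0.9875 and 1.012. Markers of vagal sensory neurons were high in every library, with Slc17a6, the vesicular glutamate transporter, at 324 to 378 CPM and Scn10a, a sodium channel of nociceptors, at 1010 to 1200 CPM.

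The levels of the 10 genes differed between single libraries of the same group. HDM 4 was the highest library for all 10 genes, and Saline 2 was second for 8 of them. Saline 1 was lowest for 7 genes and Saline 4 for the other 3. The summed level of the 10 genes was 1100 CPM in HDM 4, 466 CPM or more in the other HDM libraries, and 300 to 581 CPM in saline. HDM and saline values overlapped for all 10 genes, while 10.6% of all tested genes had groups that did not overlap in CPM. In these bulk samples, fewer cells of a type and less RNA per cell cannot be told apart, and the number of noradrenergic cells in each pool was not tested.

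**Figure D1:**
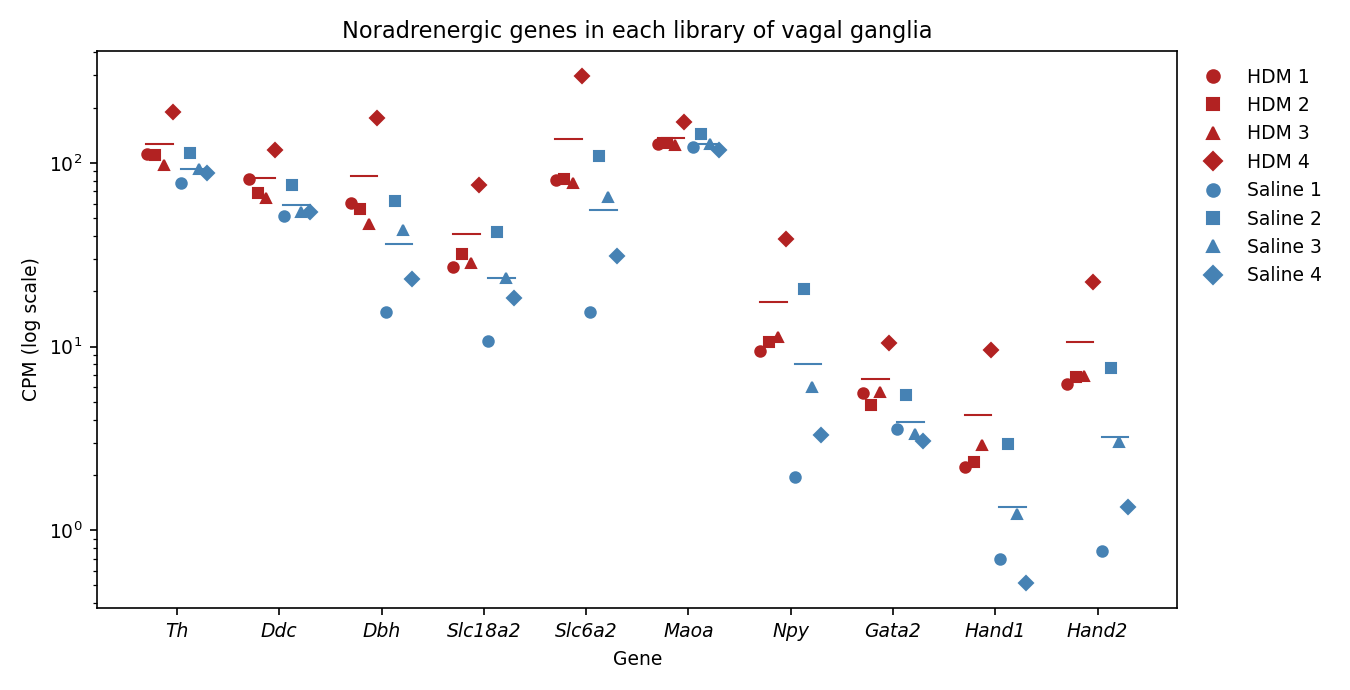
CPM (log axis) of the 10 noradrenergic genes in each of 8 libraries; symbols mark the library, colours the group, and short lines the mean of 4 libraries. HDM 4 (red diamonds) is the highest library for all 10 genes, and Saline 1 or Saline 4 the lowest.

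Among the synthesis genes, Dbh (ENSMUSG00000000889, GRCm38 chromosome 2, 27165233 to 27183200) varied most. It was at 60.4, 56.0, 46.6 and 176 CPM in HDM 1 to 4, and at 15.5, 62.3, 43.0 and 23.4 CPM in Saline 1 to 4. HDM 4 thus stood above the other 7 libraries, Saline 2 lay with HDM 1 and HDM 2, and Saline 1 and Saline 4 were low. The highest level was 11.4-fold the lowest, and counting error was small beside it (exact Poisson 95% interval 14.0 to 17.0 CPM in Saline 1 and 171 to 182 CPM in HDM 4, which covers counting error only).

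Th (ENSMUSG00000000214, chromosome 7, 142892752 to 142931128, minus strand), the first enzyme of the pathway, was at 112, 111, 97.6 and 189 CPM in HDM 1 to 4 and at 78.2, 113, 92.7 and 87.6 CPM in Saline 1 to 4. The order of the libraries was close to that of Dbh, but the range was only 2.41-fold. Ddc (ENSMUSG00000020182, chromosome 11, 11814101 to 11898144, minus strand) behaved like Th in this respect, at 81.8, 68.6, 64.2 and 117 CPM in HDM and 51.2, 75.8, 54.1 and 54.3 CPM in saline, a 2.29-fold range. Both genes kept a sizeable level in Saline 1, the library in which Dbh was lowest.

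The vesicular transporter gene Slc18a2 (ENSMUSG00000025094, chromosome 19, 59260896 to 59296012) was at 27.0, 31.8, 28.6 and 76.2 CPM in HDM 1 to 4 and at 10.7, 42.1, 23.6 and 18.4 CPM in Saline 1 to 4. The reuptake transporter gene Slc6a2 (ENSMUSG00000055368, chromosome 8, 92960079 to 93001667) was at 81.1, 81.4, 77.6 and 297 CPM in HDM and at 15.5, 109, 65.6 and 31.3 CPM in saline. Both were highest in HDM 4 and second in Saline 2, with ranges of 7.14-fold for Slc18a2 and 19.1-fold for Slc6a2. The first 3 HDM libraries differed little from each other for Slc6a2, and the saline libraries spread on both sides of them. Maoa (ENSMUSG00000025037, chromosome X, 16619698 to 16687818), which many cell types express, was at 127, 129, 125 and 166 CPM in HDM and at 122, 143, 127 and 118 CPM in saline. HDM 4 was again the highest, but the range was 1.41-fold, the narrowest of the 10 genes.

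Npy (ENSMUSG00000029819, chromosome 6, 49822710 to 49829507) was at 9.50, 10.6, 11.3 and 38.3 CPM in HDM 1 to 4 and at 1.95, 20.7, 6.02 and 3.28 CPM in Saline 1 to 4. Its 19.6-fold range resembled that of Slc6a2, and Saline 2 stood above 3 of the 4 HDM libraries. The lowest library, Saline 1, held 53 counts of Npy (exact Poisson 95% interval 39.7 to 69.3 counts) and HDM 4 held 1014.

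Of the transcription factor genes, Hand2 (ENSMUSG00000038193, chromosome 8, 57320983 to 57324633), a basic helix-loop-helix factor, had the widest range of the 10 genes, 29.0-fold. It was at 6.23, 6.82, 6.91 and 22.4 CPM in HDM 1 to 4 and at 0.773, 7.65, 3.04 and 1.33 CPM in Saline 1 to 4, where 0.773 CPM rested on 21 counts (exact Poisson 95% interval 13.0 to 32.1 counts). Its relative Hand1 (ENSMUSG00000037335, chromosome 11, 57828705 to 57832818, minus strand) was at 2.22, 2.36, 2.90 and 9.55 CPM in HDM and at 0.700, 2.93, 1.23 and 0.519 CPM in saline, with 16 counts in the lowest library (interval 9.15 to 26.0 counts). For both genes HDM 4 was the highest library, and Saline 1 and Saline 4 held few counts. Gata2 (ENSMUSG00000015053, chromosome 6, 88193891 to 88207032), a zinc finger factor, was at 5.61, 4.80, 5.68 and 10.5 CPM in HDM and at 3.57, 5.48, 3.35 and 3.05 CPM in saline, a 3.44-fold range. Slc18a2, Ddc and Hand2 share bases with a gene annotated on the other strand, for Hand2 the noncoding gene Hand2os1. The strand setting of the counting is not known, so reads of the partners cannot be told apart.

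The levels of the 10 genes can be compared with each other only per length, as mean CPM per kb of the gene length in the table. On this scale Th was highest at 46.5, followed by Maoa at 31.7, Dbh at 22.5 and Npy at 22.4. Ddc was at 15.9 and Slc6a2 at 15.1, Slc18a2 at 6.18, and Hand2, Hand1 and Gata2 at 2.93, 1.40 and 0.973. Across libraries these levels crossed, since Npy went from 3.45 to 67.6 CPM per kb and Slc6a2 from 2.47 to 47.2, while Maoa stayed between 28.4 and 40.0. The order of Dbh, Npy, Ddc and Slc6a2 therefore lay within the spread of the libraries.

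Of the 10 genes, 9 had a highest library at least 2-fold above the lowest, beside 7.27% of the 15220 tested genes with a mean of at least 1 CPM. The highest was at least 4-fold the lowest for 6 of the 10, namely Dbh, Slc18a2, Slc6a2, Npy, Hand1 and Hand2. Of the same 15220 genes, 0.821% did. With HDM 4 left out, 5 of the 10 did (all but Slc18a2, at 3.94-fold), beside 0.729% of those genes. The biological coefficient of variation, the spread between replicates of a group that the edgeR model fits beyond counting error, was 0.572 for Npy, 0.541 for Hand2, 0.499 for Hand1, 0.496 for Slc6a2, 0.410 for Dbh and 0.358 for Slc18a2. Among tested genes, 0.187% had a value at least as large as that of Npy, and 0.885% one at least as large as that of Slc18a2. The values were 0.231 for Gata2, 0.165 for Th, 0.161 for Ddc and 0.0873 for Maoa, and the median over all tested genes was 0.0821. Since the 10 genes were chosen with earlier results of these data known, the shares over all genes are a description and not a test.

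The genes varied together over the libraries. As a description over 8 libraries that also share depth and preparation, the Pearson correlation of log2 CPM with that of Dbh was 0.991 for Slc6a2, 0.973 for Slc18a2, 0.971 for Hand2, 0.960 for Npy, 0.956 for Th, 0.944 for Hand1, 0.930 for Ddc, 0.890 for Gata2 and 0.875 for Maoa. Over the other 7 libraries, without HDM 4, it was 0.987 for Slc6a2, 0.972 for Hand2, 0.952 for Th, 0.748 for Gata2 and 0.707 for Maoa. A straight line of CPM on Dbh CPM gave 68.7 CPM of Th and 45.6 CPM of Ddc where Dbh would be 0, which is 62.5% and 64.3% of their mean levels. For Maoa this share was 86.3% and for Gata2 47.3%, against 26.6% for Slc18a2, while the lines of Slc6a2, Npy, Hand1 and Hand2 ran to values below 0. Without HDM 4 the shares were 68.1% for Th, 60.9% for Ddc, 88.7% for Maoa, 51.1% for Gata2 and 16.7% for Slc18a2. These values lie outside the measured range of Dbh and describe the lines only.

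**Figure D2:**
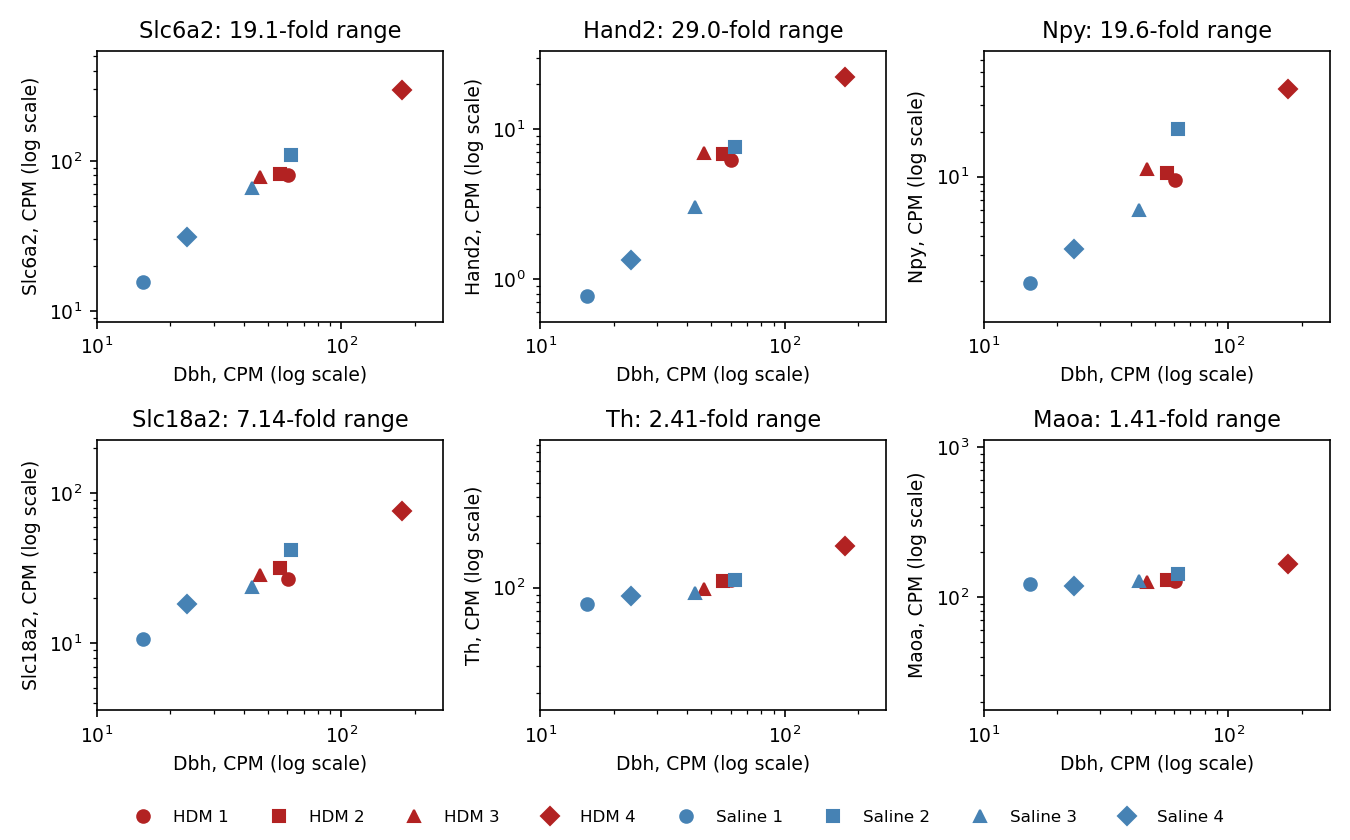
CPM of 6 of the genes against CPM of Dbh in 8 libraries, both on log axes that span the same fold in each panel; symbols mark the library and colours the group. Slc6a2, Hand2, Npy and Slc18a2 climb steeply with Dbh, while Th (2.41-fold) and Maoa (1.41-fold) form nearly level series.

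Upstream sequences are shown for Th, Slc18a2 and Hand2, the 3 genes with a match to a motif searched for. Their ranges between libraries differed, from Th at 2.41-fold to Hand2 at 29.0-fold. The sequences are from RefSeq (GRCm38.p6), which held a window of 250 bases before to 50 after the start for 8 of the 10 genes, all but Hand1 and Slc6a2. The windows of Dbh, Ddc, Npy, Gata2 and Maoa held no match and are not shown, so these 3 do not stand for the 10 genes. The stretch before the start is given, as far as no GENCODE exon covers it, at chr7:142900015-142900245 (minus strand) for Th, chr19:59260628-59260877 for Slc18a2 and chr8:57320733-57320982 for Hand2. Capitals mark matches on either strand to a cAMP response element (CRE, with the letters TGACGTCA), a GATA motif (with the letters AGATAA) or an E-box of the kind bound by HAND proteins (with the letters CAGATG).
Th: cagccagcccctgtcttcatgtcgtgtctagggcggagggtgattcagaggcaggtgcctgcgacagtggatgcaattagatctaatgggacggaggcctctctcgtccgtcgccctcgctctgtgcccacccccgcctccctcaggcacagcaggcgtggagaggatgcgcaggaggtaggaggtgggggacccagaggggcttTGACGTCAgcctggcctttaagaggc
Slc18a2: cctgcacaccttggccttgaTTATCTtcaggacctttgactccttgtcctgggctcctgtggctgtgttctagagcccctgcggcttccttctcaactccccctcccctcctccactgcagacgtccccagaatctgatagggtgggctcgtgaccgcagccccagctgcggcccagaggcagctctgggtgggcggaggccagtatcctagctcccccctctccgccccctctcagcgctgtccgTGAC
Hand2: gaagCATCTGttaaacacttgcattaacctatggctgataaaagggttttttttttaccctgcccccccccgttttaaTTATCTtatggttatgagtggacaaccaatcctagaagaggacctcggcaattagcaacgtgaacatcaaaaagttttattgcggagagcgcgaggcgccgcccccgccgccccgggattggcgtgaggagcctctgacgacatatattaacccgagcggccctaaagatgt

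In the whole windows the CRE was present for Th, where it begins 45 bases before the start, and for Slc18a2, where it begins 4 bases before the start and runs past it, so that only its first bases are in the stretch printed. Of all 32851 windows, 1.79% held it on either strand. The GATA motif was found for Slc18a2 and Hand2, beside 11.2% of all windows, and the E-box for Hand2, beside 17.2%. The AP-1 motif, with the letters TGAGTCA and also searched on both strands, was in 0 of the 8 genes' windows and in 5.20% of all. A match is a string of letters and does not show a bound site.

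The comparison of HDM with saline asked which transcripts differ in the ganglia shortly after allergen exposure. Of the 10 noradrenergic genes 0 passed (edgeR quasi-likelihood test, adjusted p under 0.05), while 1.38% of all tested genes did (244 of 17618), 216 of them higher in HDM (1.23%) and 28 lower (0.159%). The log2 fold changes of HDM over saline were all positive, with a median of 0.95, against a median of -0.006 over all tested genes, and 7 of the 10 had an unadjusted p under 0.05, as did 18.1% of all tested genes. With the replicate block, the term that compares HDM and saline within batches, 0 of the 10 passed beside 4.05% of all tested genes.

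Hand2 had the largest fitted difference, from a saline mean of 3.20 ± 3.12 CPM to an HDM mean of 10.6 ± 7.87 CPM (SD, n = 4 each), a log2 ratio (HDM over saline) of 1.71 with an SE of 0.55 (adjusted p = 0.128 by edgeR). Hand1 followed, with a saline mean of 1.35 ± 1.10 CPM and an HDM mean of 4.26 ± 3.54 CPM, a log2 ratio of 1.65 with an SE of 0.53 (adjusted p = 0.129 by edgeR). For Slc6a2 the means were 55.2 ± 41.2 CPM in saline and 134 ± 109 CPM in HDM, a log2 ratio of 1.28 with an SE of 0.52 (adjusted p = 0.214 by edgeR). In each of these 3 genes the SD within HDM was larger than the difference of the means, and the same held for Dbh. Its means were 36.1 ± 21.0 CPM in saline and 84.8 ± 61.3 CPM in HDM, a log2 ratio of 1.23 with a 95% interval of 0.31 to 2.15 (adjusted p = 0.155 by edgeR).

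For Npy the log2 ratio was 1.12 and its 95% interval, -0.15 to 2.38, included 0 (adjusted p = 0.333 by edgeR). Slc18a2 was similar in this, at 0.78 with an interval of -0.01 to 1.58 (adjusted p = 0.279 by edgeR). Gata2 had the same ratio, 0.78, with a narrower interval of 0.26 to 1.30 (adjusted p = 0.115 by edgeR). The enzyme genes with narrow ranges had smaller ratios and smaller errors. Th had a saline mean of 92.8 ± 14.5 CPM and an HDM mean of 127 ± 41.5 CPM, a log2 ratio of 0.46 with an interval of 0.10 to 0.82 (adjusted p = 0.175 by edgeR), and Ddc had 0.49 with an interval of 0.14 to 0.85 (adjusted p = 0.139 by edgeR). Maoa was closest to 0, at 0.10 with an interval of -0.08 to 0.29 (adjusted p = 0.564 by edgeR).

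The sign of the difference was not the same in every batch. HDM was above saline for 10 of 10 genes in batch 1, which holds Saline 1, and in batch 4, which holds HDM 4, with median log2 differences of 1.49 and 2.48. In batch 2 HDM was below saline for 10 of 10 genes, by a median of -0.18, and in batch 3 it was above for 9 of 10, by a median of 0.26. The difference for Dbh was 1.96, -0.15, 0.11 and 2.91 in batches 1 to 4, and for Slc6a2 2.38, -0.41, 0.24 and 3.24.

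The size of these differences depended on single libraries. Without HDM 4 the log2 fold change was 0.59 for Dbh, 0.53 for Slc6a2, 0.38 for Npy, 0.29 for Slc18a2, 0.20 for Th and -0.01 for Maoa, and 1.04, 0.87, 0.47 and 0.28 for Hand2, Hand1, Gata2 and Ddc, with 0 of the 10 called. Without Saline 2 the values were larger, 1.63 for Dbh, 1.83 for Slc6a2, 2.21 for Npy, 1.22 for Slc18a2, 1.00 for Gata2, 2.38 for Hand1 and 2.62 for Hand2, and Hand2 alone passed (edgeR adjusted p = 0.047), beside 0.543% of all tested genes. With no filter on low counts, 9 of the 10 genes passed in edgeR, all but Maoa (adjusted p from 8.37e-05 for Hand2 to 0.0189 for Npy), beside 2.26% of 31988 genes. In that fit the prior degrees of freedom of the quasi-likelihood step, which set how far each gene's spread is drawn to the trend over genes, were 59.5 against 7.61 with the filter, while the log2 fold change of Dbh was 1.22 against 1.23. The effect of that step on these calls was not tested by itself. DESeq2 called 1 of the 10, Gata2 (adjusted p = 0.0201), beside 6.94% of the genes it gave an adjusted p, and gave none for Hand1.

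**Figure D3:**
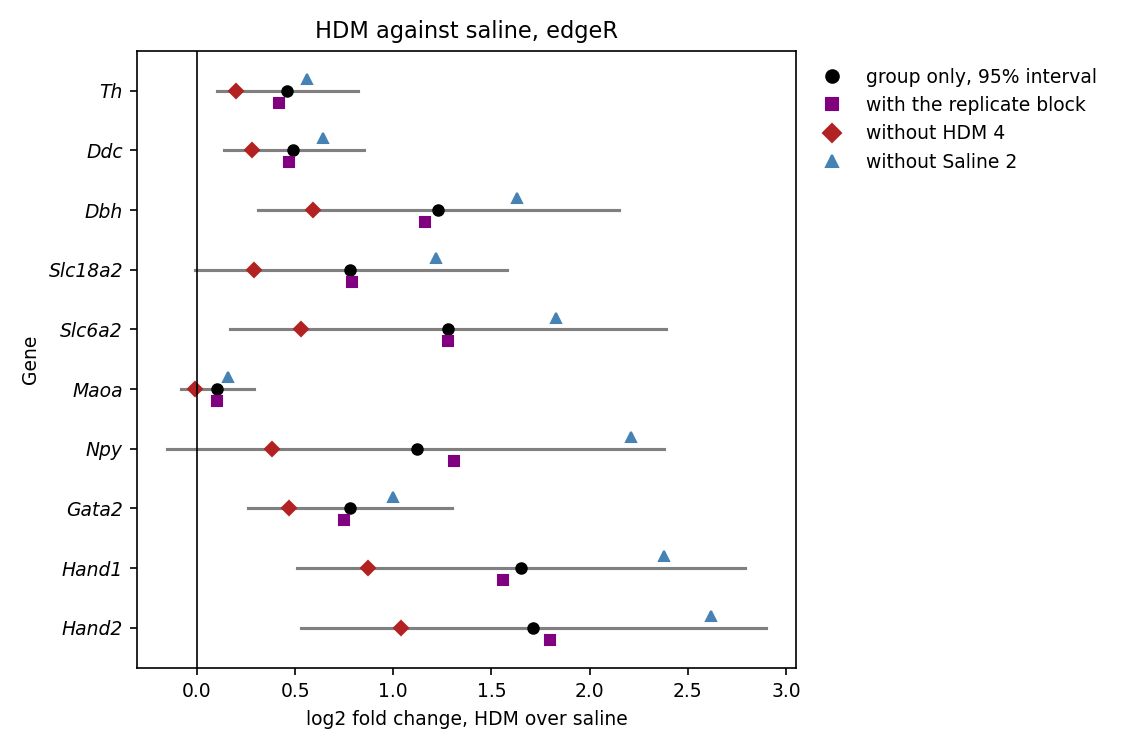
Log2 fold change of HDM over saline (x axis) for the 10 genes in edgeR, with the 95% interval of the fit with group alone (grey line), and the value with the replicate block, without HDM 4 and without Saline 2. Leaving out HDM 4 takes Dbh from 1.23 to 0.59, and leaving out Saline 2 takes it to 1.63.

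Other genes of sympathetic identity differed in their range between libraries. Of 17 such genes, 16 were tested, and 1 was called higher and 0 lower in HDM, with a median log2 fold change of 0.25. The highest library was HDM 4 for 10 of the 16 and the lowest was Saline 1 for 12, beside 14.0% and 13.5% of all tested genes. Phox2a, a homeodomain factor of noradrenergic and visceral neurons, was at 5.76 to 13.4 CPM in HDM and 3.06 to 6.15 CPM in saline, a log2 ratio of 0.92 (SE 0.26; adjusted p = 0.0906 by edgeR), or 0.57 without HDM 4. Tfap2b, which encodes transcription factor AP-2 beta, had a 12.4-fold range, from 0.552 CPM in Saline 1 to 6.87 CPM in HDM 4, and 6.70-fold without HDM 4. Gata3 had a 4.87-fold range, Ecel1, a membrane peptidase gene, 4.74-fold, and Slc10a4, whose product sits on vesicles of monoaminergic and cholinergic neurons, 3.79-fold. Without HDM 4 these ranges were 2.10-fold for Gata3, 3.43-fold for Ecel1 and 1.83-fold for Slc10a4. Of these 5 genes 0 passed. Without HDM 4 the log2 ratio went from 0.93 to 0.30 for Tfap2b, from 0.75 to 0.20 for Gata3, from 0.69 to 0.27 for Slc10a4 and from 0.33 to -0.21 for Ecel1.

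The nicotinic receptor subunit gene Chrnb4 had a 1.71-fold range (log2 ratio 0.28; adjusted p by edgeR = 0.177, or 0.0495 in the block fit), and its partner Chrna3 had 1.52-fold. Chrnb4 passed in 2 of 16 alternative fits. Isl1, a LIM homeodomain gene of sensory and sympathetic neurons, stayed within 1.09-fold. Prph, which encodes the intermediate filament peripherin, was the 1 gene of the list that passed with group as the only term (log2 ratio 0.26, SE 0.047; adjusted p = 0.0219 by edgeR). With a GC offset it was at 0.14 (adjusted p = 0.229 by edgeR) and without HDM 4 at 0.27 (adjusted p = 0.0626 by edgeR). In the fit with the GC offset 0 genes of the whole table passed. Without HDM 1, HDM 2 or Saline 3 the number that passed over the whole table was likewise 0. It was at 1390 to 1530 CPM in HDM and 1160 to 1260 CPM in saline, with no overlap, and HDM 4 was not its highest library.

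The enzymes and carriers around the pathway were flatter. Of 15 genes, 13 were tested and 0 passed (median log2 fold change 0.15; 12 positive, 1 negative). The 2 with the widest ranges, both highest in HDM 4 and lowest in Saline 1, were Cyb561, which encodes the vesicular cytochrome that supplies electrons for dopamine beta-hydroxylase, and Gch1, which encodes the first enzyme for the cofactor of tyrosine hydroxylase. Cyb561 reached 91.5 CPM in HDM 4, against 48.0 to 50.6 CPM in HDM 1 to 3 and 33.8 to 59.4 CPM in saline (adjusted p = 0.252 by edgeR). Gch1 reached 30.8 CPM in HDM 4, against 18.2 to 23.0 CPM in HDM 1 to 3 and 13.8 to 21.3 CPM in saline (adjusted p = 0.225 by edgeR). Maob, the other monoamine oxidase gene, had a 1.76-fold range, and Qdpr, which encodes the enzyme that recycles the cofactor, a 1.14-fold range. The smallest p in the list was that of Slc29a4, which encodes a low-affinity monoamine transporter (log2 ratio 0.39, SE 0.099; adjusted p by edgeR = 0.0689, or 0.0144 in the block fit). Next were Spr, which encodes the last enzyme of cofactor synthesis (0.19; adjusted p = 0.0833 by edgeR), and Aldh2, an aldehyde dehydrogenase gene (0.23; adjusted p by edgeR = 0.133, or 0.044 in the block fit). With the replicate block and GC offset together Slc29a4 was at 0.27 (adjusted p = 0.122 by edgeR). Over 16 alternative fits Slc29a4 passed in 5, Spr in 1 and Aldh2 in 3. Pnmt, which encodes the enzyme that turns noradrenaline into adrenaline, had 0 to 3 counts per library, and Slc6a3, the dopamine transporter gene, 0 to 2 counts.

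The receptors of noradrenaline did not share the pattern as a group. Of 9 genes, 8 were tested, 0 passed, 6 had positive and 2 negative log2 ratios (median 0.11), of which those of Adra1d, Adra2a and Adrb1, all near 0, changed sign with the GC offset. Adra2b, an alpha-2 receptor gene, reached 4.15 CPM in HDM 4, against 1.79 to 2.80 CPM in HDM 1 to 3 and 1.07 to 2.49 CPM in saline (log2 ratio 0.71; adjusted p = 0.233 by edgeR). Adra2c was at 7.21 to 9.29 CPM in HDM and 5.74 to 6.60 CPM in saline, without overlap (log2 ratio 0.35, SE 0.11; adjusted p = 0.110 by edgeR), and HDM 4 was the lowest of its HDM libraries. Adra2a, at 5.29 to 8.50 CPM, was highest in Saline 1. The alpha-1 receptor genes Adra1a and Adra1b had log2 ratios of -0.57 and -0.82 (adjusted p = 0.217 and 0.216 by edgeR), at levels of 0.457 to 2.06 CPM. These rested on 17 to 43 counts per library for Adra1a and 12 to 56 for Adra1b. Adra1d and Adrb1 had log2 ratios of 0.13 and 0.05 at under 1 CPM, and Adrb3 was not tested.

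Outside the lists, 8 protein-coding genes were named for the highest correlation with Dbh over the 8 libraries, among 659 genes with a mean log2 CPM above 0 and a range of at least 1 on the log2 scale. These were Doc2b, a calcium sensor of vesicle release (0.979, and 0.958 without HDM 4), Fam163a (0.972 and 0.953), the nitric oxide receptor subunit Gucy1a1 (0.964 and 0.925), the PACAP receptor Adcyap1r1 (0.958 and 0.909), the AMPA receptor auxiliary subunit Shisa9 (0.922 and 0.863), the arginase Arg1 (0.918 and 0.815), the secretin receptor Sctr (0.897 and 0.819) and the nucleotidase Nt5c1a (0.890 and 0.745). They were selected for this likeness, so it supports nothing by itself. Fam163a had the widest range, 8.37-fold, from 0.844 CPM in Saline 4 to 7.06 CPM in HDM 4. Adcyap1r1 reached 18.7 CPM in HDM 4, against 5.98 to 7.87 CPM in HDM 1 to 3 and 3.50 to 9.15 CPM in saline. Arg1 reached 10.3 CPM in HDM 4, against 6.00 to 6.57 CPM in HDM 1 to 3 and 3.99 to 6.09 CPM in saline. In the fit of HDM against saline 0 of the 8 passed, with log2 ratios of 0.55 to 1.13 (adjusted p from 0.107 to 0.447 by edgeR). Without HDM 4 these ratios were 0.19 (Sctr) to 0.56 (Nt5c1a), with Fam163a at 0.36 and Adcyap1r1 at 0.27, and again 0 passed (adjusted p from 0.257 to 0.858 by edgeR).

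**Figure D4:**
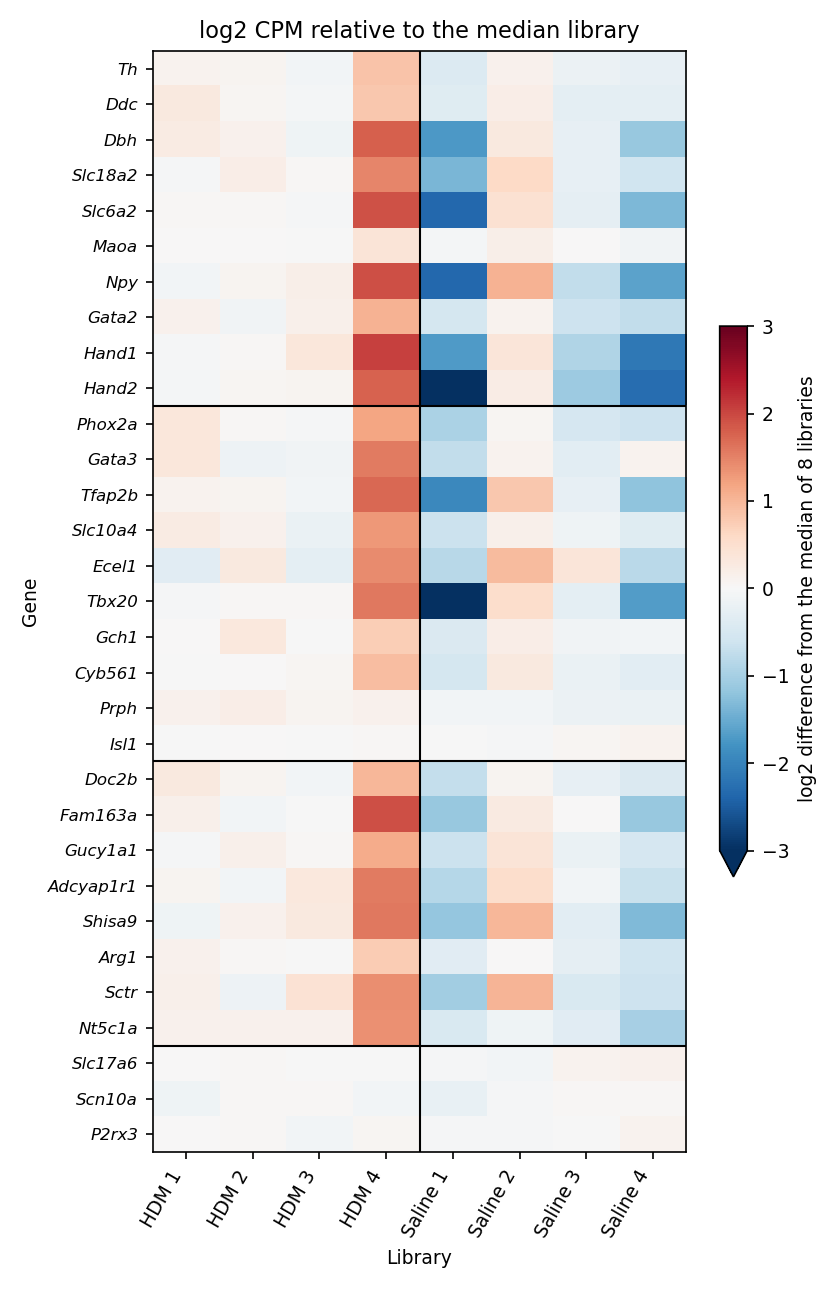
Log2 CPM of each gene minus its median over 8 libraries (red above, blue below; values under -3 are shown at the end of the scale), in 4 blocks from top to bottom: the 10 noradrenergic genes, other listed neuron genes, the 8 genes most like Dbh, and 3 sensory neuron markers. The HDM 4 column is red and the Saline 1 column blue for most genes of the top 3 blocks, and the sensory markers at the bottom, such as Slc17a6 at 324 to 378 CPM, are nearly white. The listed sensory markers that are not drawn had ranges from 1.13-fold (Trpv1) to 1.49-fold (Tlx3).

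Markers of other cells that a dissected ganglion could hold were measured beside these genes. The summed level of 12 vagal sensory markers was 4370 CPM in HDM 4 and 4330 CPM in Saline 1, against 4600 to 4740 CPM in Saline 2 to 4, and its highest library was 1.10-fold its lowest. Of those 12 genes 0 were highest in HDM 4 and 0 passed, and with the block Tlx3 and Avil passed (adjusted p = 0.0211 and 0.0473 by edgeR). Over 16 alternative fits Tlx3 passed in 5 and Avil in 2. Carotid body glomus cells also make catecholamines. Their 10 listed markers summed to 399 to 435 CPM in HDM and 392 to 431 CPM in saline, and Higd1c had 0 or 1 counts per library. Nrg1, Epas1, Kcnk9, Rgs5 and Kcnk3 made up most of this sum, at means of 109, 101, 66.5, 59.6 and 43.4 CPM. Whether the sum follows glomus cells was not tested. Cox4i2 and Ndufa4l2 were under 1 CPM in every library. Of the 9 tested 0 passed, and with the block Kcnk3, a potassium channel gene, did (adjusted p = 0.0189 by edgeR). Kcnk3 passed in 4 of 16 alternative fits. Olfr78, an olfactory receptor gene that glomus cells express, was at 15.1 CPM in HDM 4 and 7.88 to 12.3 CPM in the other libraries. Chromaffin markers summed to 1660 CPM in HDM 4, 1400 to 1520 CPM in HDM 1 to 3 and 1320 to 1400 CPM in saline. Most of the chromaffin sum came from Scg2 and Syt1, at means of 734 and 446 CPM. Of 8 chromaffin marker genes 7 were tested, and the granin genes Chga and Chgb were higher in HDM (log2 ratios 0.28 and 0.42; adjusted p = 0.022 and 0.00938 by edgeR). With the GC offset neither passed, at 0.18 for Chga and 0.37 for Chgb (adjusted p = 0.218 and 0.0593 by edgeR), and with the replicate block and GC offset together Chgb did (0.37; adjusted p = 0.0358 by edgeR) and Chga did not (0.18; adjusted p = 0.154 by edgeR). Chgb was at 80.2 to 93.9 CPM in HDM and 63.5 to 69.7 CPM in saline, and neither granin gene was highest in HDM 4. Pnmt, whose enzyme is needed to make adrenaline but not noradrenaline, had at most 3 counts per library.

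Fibroblast markers stood out in Saline 1. Their sum was 1070 CPM in Saline 1, the library lowest in most noradrenergic genes, and 698 to 771 CPM in HDM and 768 to 872 CPM in Saline 2 to 4. Dcn alone was at 641 CPM in Saline 1. Of 6 fibroblast genes Ogn was lower in HDM (log2 ratio -0.44; adjusted p = 0.039 by edgeR), and with the block Dcn was too. Myelinating Schwann cell markers summed to 3170 CPM in Saline 1 and to 2500 to 2910 CPM in the other libraries (1 of 8, Pmp22, lower in HDM), satellite glia markers to 2870 to 3470 CPM (1 of 8 lower in HDM, and with the block Apoe higher, log2 ratio 0.24, adjusted p = 0.0235 by edgeR), endothelial and mural markers to 128 to 185 CPM (0 of 8 called), macrophage markers to 35.2 to 56.3 CPM (0 of 6 called) and skeletal muscle markers to 1.53 to 3.54 CPM (0 of 3 tested called). Saline 1 had the highest sum of the first 5 of these lists, from fibroblasts to macrophages. For satellite glia this lead was narrow, at 3470 CPM against 3440 CPM in HDM 1. Saline 4, lowest for 3 of the noradrenergic genes and second lowest for 6, did not share this. Its sums were 781 CPM for fibroblasts, 2910 for Schwann cells, 2870 for satellite glia, 139 for endothelial and mural cells and 36.9 for macrophages. The part of these lists in the library differences of the noradrenergic genes was not tested.

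**Figure D5:**
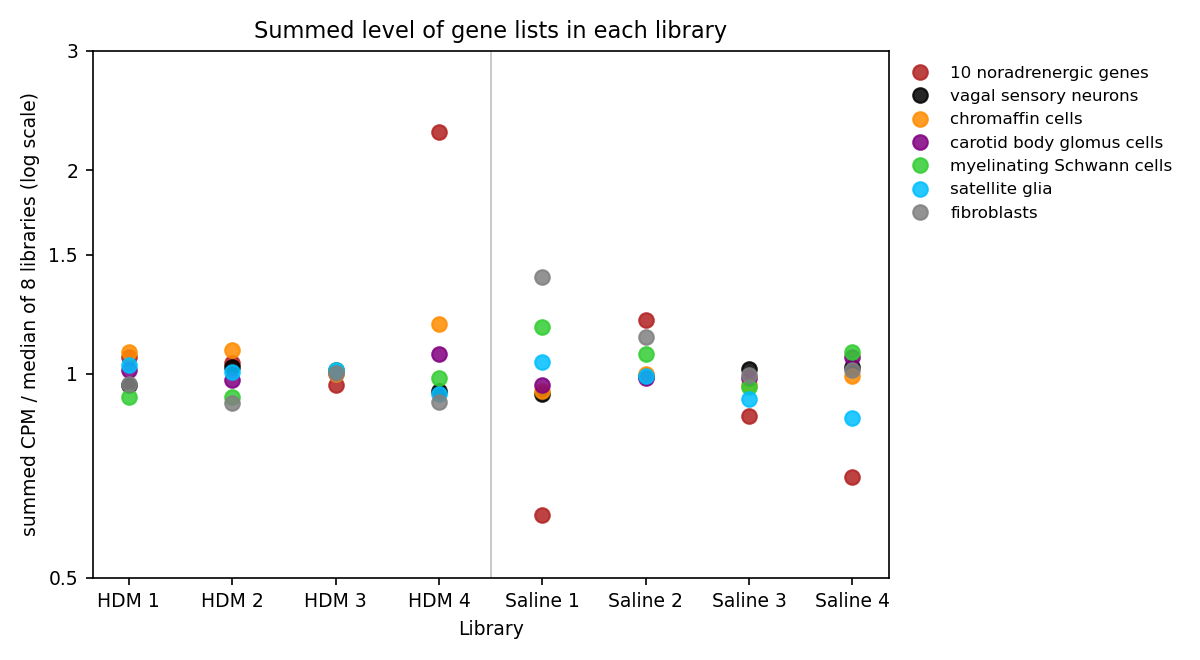
Summed CPM of 7 gene lists in each library, divided by the list's median over 8 libraries (log axis); points are libraries and colours are lists. The 10 noradrenergic genes run from 300 CPM in Saline 1 to 1100 CPM in HDM 4, a 3.68-fold range, while sensory markers stay within 1.10-fold and fibroblast markers are highest in Saline 1. Each sum is weighted to the most abundant genes of its list, such as Scg2 among the chromaffin markers.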

How the data were processed

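RNA of 8 pools of vagal ganglia (4 HDM, 4 saline) was sequenced with paired reads of 50 bp from a stranded mRNA kit, per the labels' protocols. The authors deposited raw counts per gene, made with featureCounts on GRCm38 (mm10) per the submitters' processing notes. Aligner, versions and strand setting: not given in the sources used here. Symbols came from the GENCODE annotation supplied for GRCm38, which held 55154 of the 55335 listed genes. Gene length, the other deposited value used, came from the count table.

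Genes were kept with filterByExpr, scaled by TMM and compared with edgeR 4.0.16 (R 4.3.3; quasi-likelihood F-test, 2-sided, group as the only term, Benjamini-Hochberg adjustment over 17618 genes, called at an adjusted p under 0.05). The fit was also run on simulated counts, drawn independently for each gene and with no library set apart. That run does not cover a library that deviates in many genes together. Log2 CPM used a prior count of 0.5. Standard errors are the log2 fold change over the square root of F. A count of 0 allows up to 3 counts, 0.0959 to 0.125 CPM.

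The labels' batch numbers equal the replicate numbers and pair an HDM with a saline library. Residuals of the paired libraries had correlations between -0.051 and 0.033 across genes. In 0 of 8 libraries was the partner the closest, so only the labels support the pairing.

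The 10 genes and the 14 other lists were chosen with earlier results of these data known. The genes named are the 10, the called members and up to 4 more of a list with the smallest p, Phox2a, Gata3, Chat, Slc18a3, the noradrenaline receptors, and the 8 genes most correlated with Dbh, apart from some genes that are not reported here. Any further gene was picked for its range between libraries, with its values in view. Alternatives were DESeq2 1.42.0, limma-voom (limma 3.58.1), RLE size factors in edgeR, no filter on low counts, at least 1 CPM in 4 libraries, the replicate block, a GC offset (natural spline with 4 degrees of freedom, fitted above a mean log2 CPM of 3), both together, and leaving out each library.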

Additional observations from a re-analysis of the deposited data

Results flagged for a closer look

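Within each group of 4 libraries, a library was singled out where its gap to the nearest other, divided by the range, passed Dixon's 95% critical value. Of 108 groups examined (54 genes, HDM and saline), 22 were singled out, and 19 of these were HDM 4 as the highest. Many of these genes were chosen with their values known, among them the 8 chosen for following Dbh, and they are not independent of each other, so the tally describes the genes chosen. Chance singles out about 1 group in 20 among genes not chosen for their pattern, a rate that does not apply to this tally.

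Among the 10 noradrenergic genes, HDM 4 stood apart from the other HDM libraries in 9. Its levels were 189 CPM for Th (next highest 112), 176 CPM for Dbh (60.4), 76.2 CPM for Slc18a2 (31.8), 297 CPM for Slc6a2 (81.4), 9.55 CPM for Hand1 (2.90), 22.4 CPM for Hand2 (6.91), 10.5 CPM for Gata2 (5.68), 38.3 CPM for Npy (11.3) and 166 CPM for Maoa (129). For Ddc it was Saline 2 that stood apart in its group, at 75.8 CPM with the next at 54.3.

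Of the other genes, HDM 4 stood apart for Tfap2b at 6.87 CPM, Cyb561 at 91.5, Tbx20 at 13.5, Olfr78 at 15.1, Fam163a at 7.06, Gucy1a1 at 23.6, Adcyap1r1 at 18.7, Shisa9 at 3.70, Arg1 at 10.3 and Nt5c1a at 5.40 CPM. Saline 2 stood apart for Sctr at 6.28 CPM and HDM 2 for Chat at 0.990 CPM.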

How the results depend on the processing

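Over 16 alternatives, 46 of the 54 genes followed kept 1 direction, among them 9 of the 10 noradrenergic genes. The count of genes that differed, 244, became 722 with no filter, 843 in DESeq2, 713 with the replicate block, 0 with the GC offset and 51 with the replicate block and GC offset together. It ran from 0 (without HDM 1, HDM 2 or Saline 3) to 376 (without HDM 3), with 60 without HDM 4 and 97 without Saline 2. Of the 10 noradrenergic genes 9 passed with no filter, 1 in DESeq2 and 0 with the replicate block, and leaving out single libraries gave 0 to 1. Their median fold from the lowest to the highest library, 9.27, was 9.33 with RLE size factors and, when single libraries were left out, ran from 3.99 (without HDM 4) to 9.27, with 5.84 without Saline 1. Signs turned in 8 genes, none of which passed. When single libraries were left out, log2 fold changes ran from -0.006 (without HDM 4) to 0.16 for Maoa, from -0.21 (without HDM 4) to 0.76 for Ecel1, from -0.11 to 0.19 for Olfr78, from -0.13 to 0.16 for Npy4r, from -0.065 to 0.032 for Npy2r, from -0.023 to 0.28 for Adra1d and from -0.29 to 0.30 for Adrb1. With the GC offset they were -0.005 for Adra2a, -0.028 for Adra1d, -0.049 for Adrb1 and 0.06 for Npy2r, and with block and GC offset -0.016 for Adra1d, -0.045 for Adrb1 and 0.06 for Npy2r. The cause was not tested. Depth limits Hand1 and Hand2, with 16 and 21 counts in their lowest libraries.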

Other observations

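Cholinergic genes were measured because some sympathetic neurons and all parasympathetic neurons use acetylcholine. Of 9 listed genes 6 were tested and 0 passed (median log2 fold change 0.31). Chat, which encodes the enzyme that makes acetylcholine, held 2 to 26 counts per library, and Slc18a3, which encodes its vesicular transporter, 14 to 25 counts. Slc5a7, the choline transporter gene, was at 46.7 to 58.1 CPM, with a 1.24-fold range. Tbx20, a T-box factor gene on that list, shared the library pattern of Dbh: it was at 4.39, 4.61, 4.61 and 13.5 CPM in HDM 1 to 4 and at 0.221, 6.47, 3.66 and 1.40 CPM in Saline 1 to 4. Its range was 61.0-fold, from 6 counts in Saline 1 to 357 in HDM 4, or 29.3-fold without HDM 4, and its adjusted p between HDM and saline was 0.292 (edgeR).

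Of 5 neuropeptide Y receptor genes 3 were tested and 0 passed. Npy2r, which vagal sensory neurons express, was at 45.5 to 55.5 CPM and was highest in Saline 4, so it did not share the order of the libraries seen for Npy itself. Npy1r was at 13.7 to 17.3 CPM in HDM and 16.4 to 19.1 CPM in saline, with HDM below saline in 4 of 4 batches (log2 fold change -0.22, SE 0.087, edgeR adjusted p = 0.196).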
